A study of Homo sapiens with 4 samples.

Results

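The terminal stretch of the long arm of human chromosome 17, band 17q25, was examined in Micro-C contact counts from SH-SY5Y cells with and without knockdown of TDP-43. Its members were the listed pairs of 50 kb bins with both bins on chromosome 17 between position 78200001 and position 83250000 (hg38), and they are called the 17q end here. There were 659 such pairs of 89239 listed in all, 98 of them inside a single bin and 561 between different bins. The region was proposed after knockdown and control values of these libraries had been seen. Every knockdown value for it is therefore given as a description, and counts of called pairs, which use that contrast, support no statement about the region.

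The study compared 2 control libraries with 2 TDP-43 knockdown libraries of SH-SY5Y, a human neuroblastoma line. Both groups derive from this one line, cultured alike and infected with lentivirus that expresses a short hairpin RNA from a U6 promoter. The control hairpin is named shNC and the knockdown hairpin shTDP-43. Knockdown cells were a stable population. In both groups, selection used 2 µg/mL of puromycin over 2 weeks, followed by 1 µg/mL in the medium. The labels do not say whether the 2 libraries of a group came from separate cultures, and each title ends in "merged" without saying what was merged. Spread between libraries may therefore be technical. The level of TARDBP itself, the gene for TDP-43, was not measured by this assay. The libraries held between 115168160 and 163147992 listed contacts.

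Micro-C cuts chromatin with micrococcal nuclease between nucleosomes, joins the ends that lie close together in the nucleus, and counts each joined pair of positions as a contact. A contact within one bin reports folding over short stretches of chromatin, whereas a contact between bins reports loops, domains and compartments. TDP-43 is an RNA-binding protein that represses cryptic exons and other wrong splicing, and its loss from the nucleus is a hallmark of amyotrophic lateral sclerosis. The end of 17q is gene dense. It holds neuronal genes such as RBFOX3, which encodes the splicing regulator NeuN, beside housekeeping genes such as FASN, RPTOR and ACTG1. Gain of distal 17q is a frequent event in neuroblastoma, and copy number was not analysed here.

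In the RefSeq annotation of GRCh38.p14, 97 protein-coding genes lay past the edge of the region, and the bin of the gene start could be placed for 88 of them. Promoters of the region in the RefSeq table, 107 windows of 300 bases with several for some genes, had a median GC content of 68.3% and a median of 30 CG dinucleotides. The 22198 protein-coding promoters of the genome in that table had medians of 62.3% and 21. Shown next are 4 of the promoters, 5′ to 3′ on the strand of the gene, with each CG in capitals. They stand for bins that the results turn on: an internal AATK start in the bin with the most lower pairs (chr17:81131905-81132204, minus strand), the RPTOR start, at the head of the long gene that holds the highest log2 fold changes between bins (chr17:80544588-80544887, plus strand), the BAHCC1 start beside the bin with the most contacts (chr17:81395207-81395506, plus strand), and the DUS1L start in the bin with the largest decrease within a bin (chr17:82065755-82066054, minus strand).
AATK: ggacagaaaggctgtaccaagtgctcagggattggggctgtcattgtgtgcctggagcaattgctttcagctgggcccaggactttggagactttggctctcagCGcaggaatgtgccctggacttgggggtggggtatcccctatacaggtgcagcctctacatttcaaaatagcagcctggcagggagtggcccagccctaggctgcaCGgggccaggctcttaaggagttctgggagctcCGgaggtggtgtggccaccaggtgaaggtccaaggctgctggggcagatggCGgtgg
RPTOR: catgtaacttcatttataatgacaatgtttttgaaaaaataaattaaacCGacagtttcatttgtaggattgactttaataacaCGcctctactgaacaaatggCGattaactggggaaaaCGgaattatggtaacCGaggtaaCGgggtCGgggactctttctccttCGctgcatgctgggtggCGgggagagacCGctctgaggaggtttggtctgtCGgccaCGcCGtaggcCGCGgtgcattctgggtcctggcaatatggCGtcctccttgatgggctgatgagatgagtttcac
BAHCC1: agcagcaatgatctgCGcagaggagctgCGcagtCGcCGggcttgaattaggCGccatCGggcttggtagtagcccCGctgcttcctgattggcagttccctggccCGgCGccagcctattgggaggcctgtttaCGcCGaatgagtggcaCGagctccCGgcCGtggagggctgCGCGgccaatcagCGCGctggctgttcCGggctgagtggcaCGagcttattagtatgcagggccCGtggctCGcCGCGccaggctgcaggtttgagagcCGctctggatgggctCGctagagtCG
DUS1L: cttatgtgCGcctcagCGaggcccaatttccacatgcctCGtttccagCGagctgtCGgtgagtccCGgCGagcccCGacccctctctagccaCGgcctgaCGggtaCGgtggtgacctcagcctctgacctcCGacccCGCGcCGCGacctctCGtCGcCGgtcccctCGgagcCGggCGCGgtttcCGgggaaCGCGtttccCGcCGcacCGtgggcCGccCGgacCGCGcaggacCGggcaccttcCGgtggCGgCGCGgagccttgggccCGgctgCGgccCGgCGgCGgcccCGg
They ranged from 4 CG dinucleotides in the AATK window and 16 in that of RPTOR to 27 in that of BAHCC1 and 44 in that of DUS1L. The repeat TGTGTGTG, a form of the UG-rich sequence that TDP-43 binds in RNA, was found on either strand in 3 promoters of the region (2.80%), those of BAIAP2, RBFOX3 and LOC124904094, and in 3.00% of all promoters. None of the 4 promoters shown held it. A match describes letters in these windows and says nothing of binding.

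In the control libraries, a measure that does not use the knockdown, the 17q end had many contacts within a bin. Levels are CPM, that is, counts brought to a common library size, here with TMM scaling (the trimmed mean of M-values). The median bin of the region had 127 CPM in the controls, against 7.35 CPM over all 48992 bins. All but 1 of its 98 bins lay above that median, and 41 of them were among the 490 bins that make up the top 1%. The adjoining 5 Mb of chromosome 17 had a median of 90.7 CPM, with 25 of its 99 bins in the top 1%. The bin with the most contacts of the whole series started at 81400001 and holds part of BAHCC1, a chromatin protein with a BAH domain. It had 275 and 314 CPM in control cells and 198 and 207 CPM in knockdown cells. The bin ranked next started at 81300001 and holds no protein-coding gene, with 276 and 301 CPM in the controls and 206 and 211 CPM in the knockdown. Both knockdown libraries lay below both control libraries at these bins.

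Levels varied along the region. Bins with 3 or more protein-coding genes had a median of 174 CPM in the controls (18 bins), those with 1 or 2 had 112 CPM (71 bins) and those with none had 104 CPM (9 bins). A trough of 35.7 to 65.6 CPM in the controls ran over 5 bins inside RPTOR, which encodes the scaffold of the growth-regulating mTOR complex. The lowest bin, starting at 81750001 without a gene, had 4.84 and 4.23 CPM in the controls and 3.49 and 2.95 CPM in the knockdown. The 3 bins from 82950001 to 83100000, over QTGAL and METRNL, are not listed. Contacts between bins were also frequent: at 100 kb the region held 90 of the 7367 listed pairs (1.22%), of which 10 were among the top 1% by control level.

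**Figure D1:**
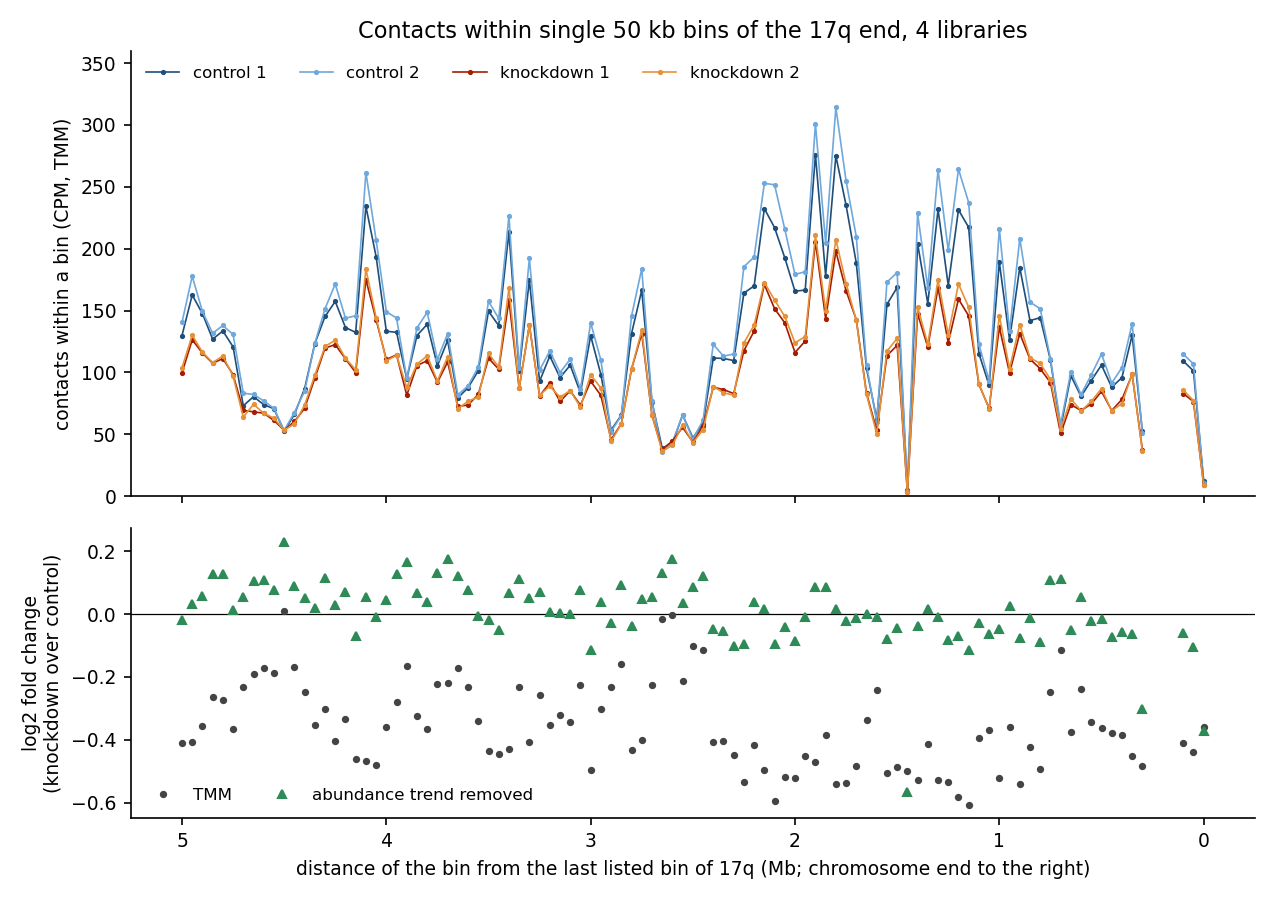
Contacts within each 50 kb bin of the 17q end (upper panel, CPM, 1 line per library) and log2 fold change of knockdown over control (lower panel) against the distance of the bin from the last listed bin, with the chromosome end to the right. Both knockdown lines lie below both control lines at 95 of 98 bins (28.5% of the bins of the series), while the log2 fold changes with the abundance trend removed (triangles) lie around 0; the gap near the right edge is the 3 bins that are not listed.

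The 17q end took a smaller share of the library in the knockdown. It held 1.53% and 1.61% of all listed contacts in control cells and 1.34% and 1.36% in knockdown cells. The groups did not overlap, and the means were 1.57% ± 0.0540 and 1.35% ± 0.0130 (SD, n = 2). Contacts within a bin carried most of that difference, at 1.20% and 1.26% of the library in the controls and 1.02% and 1.03% in the knockdown. Contacts between bins took 0.328% and 0.342% in the controls and 0.320% and 0.322% in the knockdown, a smaller gap but again without overlap. Of the region's own contacts, 78.5% and 78.7% lay within a bin in the controls and 76.1% and 76.2% in the knockdown. That share also fell outside the region. Over the series it was 84.9% in both controls and 83.8% in both knockdown libraries. In the adjoining 5 Mb of chromosome 17 it was 78.3% and 78.7% in the controls and 76.2% in both knockdown libraries. At the 17q end, contacts 200 kb or more apart correspondingly took 5.88% and 5.84% in the controls and 6.35% and 6.27% in the knockdown. In summed CPM, contacts within a bin were at 0.759 of the control mean there, and those 200 kb or more apart at 0.844. That order is of sums and was not kept with the abundance trend removed. The median log2 fold change was then 0.01 within a bin and -0.32 at 200 kb or more. The share at 200 kb or more also rose in the adjoining 5 Mb, from 4.84% and 4.78% to 5.18% and 5.25%. With 2 libraries a group, an exact permutation test cannot give a p below 0.333.

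Scaled by TMM, 196 of the 659 pairs were lower in the knockdown at an adjusted p under 0.05 (edgeR, Benjamini-Hochberg over the whole table), and 0 were higher. Over all pairs of the series 10.5% were called lower and 5.76% higher, and both shares include the contrast that chose the region. The median log2 fold change was -0.23 over the region and 0.02 over the series. Both knockdown libraries lay below both controls at 410 pairs (26.3% of all pairs of the series) and above both at 22 (29.8%). Leaving out a knockdown library lowered the count the most: 98 pairs were lower without TDP43KD replicate 1 and 112 without TDP43KD replicate 2, where 4.52% and 5.62% of the series were called lower. No pair passed in the other direction in those fits.

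By distance and with 1 TMM factor per library, the median was furthest below 0 within bins and at 500 kb or more, and nearer to 0 in between. Within a bin, 92 of 98 were lower (14.3% of the series) with a median of -0.37. In adjoining bins 38 of 96 were lower (5.64% of the series) with a median of -0.16. At 100 to 150 kb 24 of 175 were lower (4.62%), with a median of -0.15. At 200 to 450 kb 34 of 256 were lower (7.40%), with a median of -0.23. At 500 kb or more 8 of 34 were lower (12.4%), with a median of -0.36. Long-range counts depended on the scaling. They also fell when either knockdown library was left out, which leaves 1 library in that group and lowers the calls over the series too. The median at 200 kb or more ranged from -0.29 to -0.19 as each library was left out. With TMM factors set within each distance class, 17 of 290 pairs at 200 kb or more were lower (3.27% of the series) with a median of -0.13, against 42 (7.92%) and -0.24 with 1 factor per library. The medians from adjoining bins outwards were then -0.21, -0.20, -0.11 and -0.24, so the order of the distance classes changed with the scaling. Of the 104 pairs between bins called lower (5.84% of the series), the fit without TDP43KD replicate 1 called 30 and that without TDP43KD replicate 2 called 45, where 1.42% and 2.49% of such pairs of the series were called lower. The same fits called 68 and 67 of the bins lower, and 7.06% and 8.18% of the bins of the series. The median between bins was -0.20, and it ranged from -0.25 to -0.14 as each library was left out.

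Contacts within a bin and between bins behaved differently under another scaling. The fit was repeated after a loess curve per library had removed any trend of the log2 fold change with abundance. Within bins, the median became 0.01, with 10 bins lower (5.12% of the series) and 16 higher (7.89%). The reduction within bins was thus present under TMM and absent once the trend was removed, at bins that are among the most abundant of the table. Between bins the median became -0.24, with 120 of 561 lower (7.01% of the series) and 0 higher (1.44% of the series). It went from -0.12 in adjoining bins to -0.20 at 100 to 150 kb, -0.31 at 200 to 450 kb and -0.42 at 500 kb or more, where all 34 pairs were below 0. Series medians under the same scaling were 0.03, -0.08, -0.19 and -0.27, so pairs outside the region also went further below 0 with distance. In all, 105 pairs were lower under both scalings, 10 of 98 within a bin and 95 of 561 between bins. Over the series 4566 of 89239 were, 2360 of 48992 within a bin and 2206 of 40247 between bins. Why the scalings differ within bins was not tested.

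**Figure D2:**
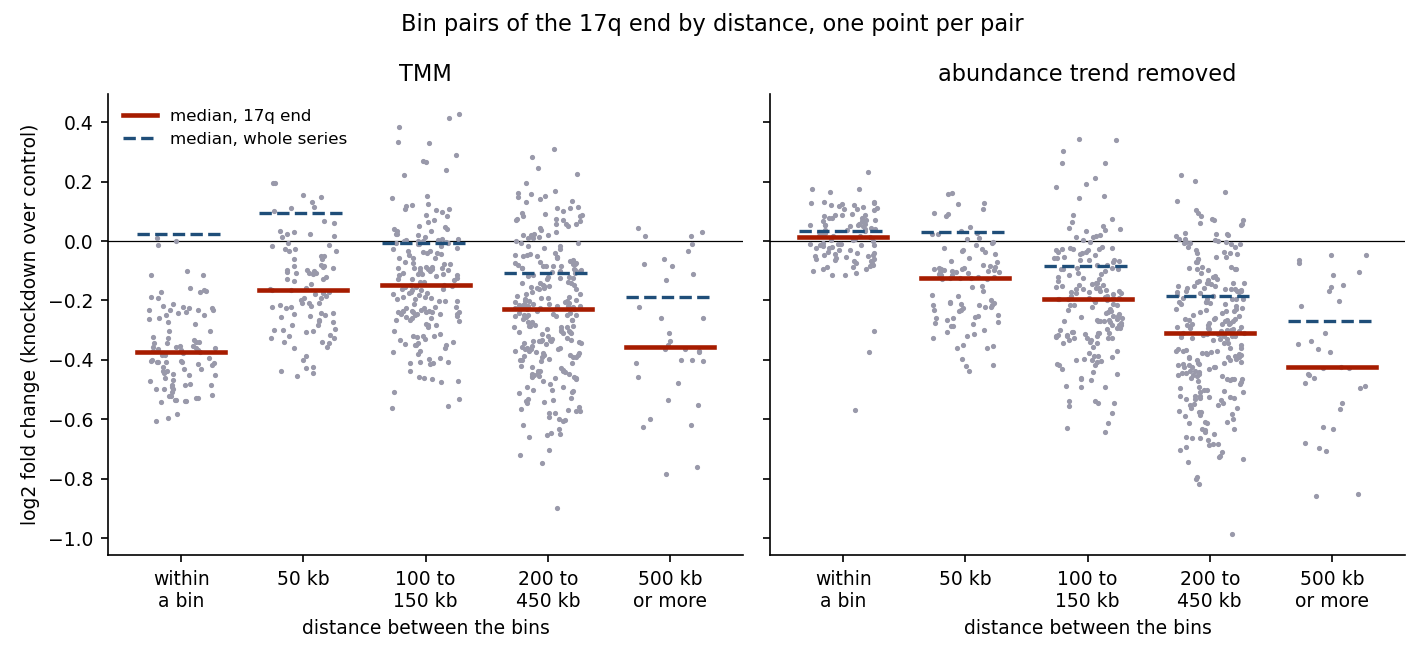
Log2 fold change of knockdown over control for the 659 pairs of the 17q end by distance between the bins, with TMM scaling (left) and with the abundance trend removed (right). Grey points are pairs, the solid line is the median of the region and the dashed line that of the whole series: the within-bin median is -0.37 on the left and 0.01 on the right, while the medians from 50 kb on lie below 0 and below the series in both panels.

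The region was cut into blocks of 1 Mb from the edge towards the chromosome end. The pairs between bins called lower were 17 of 123, 6 of 114, 32 of 140, 35 of 110 and 14 of 74 in turn, beside 5.84% of such pairs over the series, a share near that of the block with 6. That block, from 79200001 to 80200000, holds most of RBFOX3, CBX2 and CBX8. The block with 35, from 81200001 to 82200000, holds 40 gene starts, CEP131 to FASN. Its control median within a bin was 179.6 CPM, the highest of the blocks. For pairs 200 kb or more apart, the medians of the blocks in the same order were -0.22, -0.11, -0.31, -0.34 and -0.29. All were below 0 with the trend removed too, between -0.20 and -0.40.

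**Figure D3:**
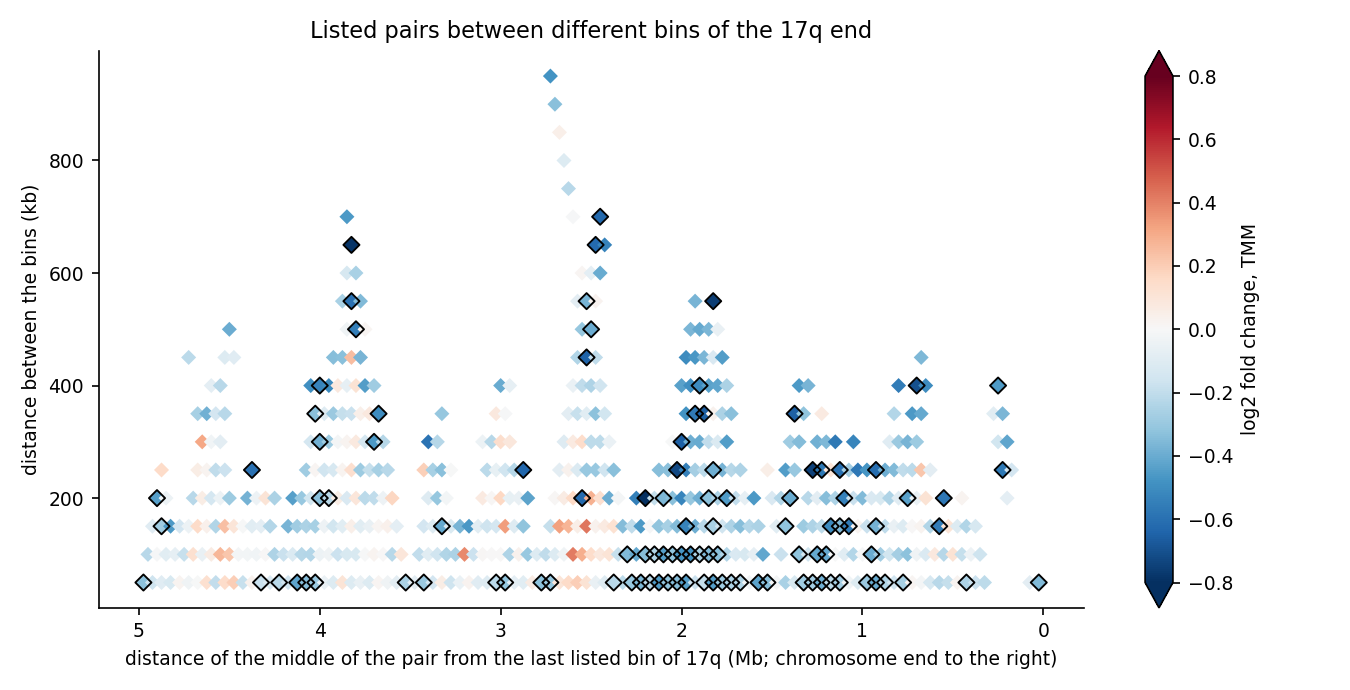
Each diamond is one of the 561 listed pairs between different bins of the 17q end, placed by the distance of the middle of the pair from the last listed bin (horizontal) and by the distance between the bins (vertical). Colour is the log2 fold change of knockdown over control with TMM scaling, shown between -0.8 and 0.8, and black outlines mark the 104 pairs called lower; they are densest around 2 Mb from the last bin, over BAIAP2 to BAHCC1.

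The largest decreases joined bins 200 to 650 kb apart. They were named by a rule that took the 8 largest among pairs past the threshold whose groups did not overlap, with adjoining pairs counted once; no increase qualified. Levels are given in CPM for control 1, control 2, knockdown 1 and knockdown 2 in turn. The first joined the RPTOR bin at 80900001 to the bin at 81100001, which holds BAIAP2, an adaptor of the actin cytoskeleton, and AATK, a kinase of neurons. Over its 200 kb it had 2.43, 2.27, 1.20 and 1.32 CPM, a log2 fold change of -0.90 (SE 0.22). The raw counts were 371, 350, 145 and 196 contacts, so counting error is a visible part of the spread.

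The pair of the ENGASE and RBFOX3 bin at 79050001 with the ENPP7 bin at 79700001 spans RBFOX3. At 650 kb it had 3.89, 3.16, 2.07 and 2.02 CPM, a log2 fold change of -0.78 (SE 0.18). ENPP7 encodes an intestinal sphingomyelinase, and ENGASE an enzyme that trims free glycans. Its control level was rank 10 of the 87 pairs listed at that distance.

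The bin at 81100001 was also one end of the next, joined to the bin at 81650001 with PDE6G, OXLD1 and HGS, the last an endosomal sorting protein. Over 550 kb the levels were 2.18, 1.89, 1.35 and 1.06 CPM, a log2 fold change of -0.76 (SE 0.23). A bin with GCGR, MCRIP1 and P4HB at 81800001 paired with the bin of GPS1, DUS1L and FASN at 82050001, which encode a signalosome subunit, a tRNA-modifying enzyme and fatty acid synthase. Levels were 5.00, 4.24, 2.69 and 2.81 CPM over 250 kb, a log2 fold change of -0.75 (SE 0.16). That the groups do not overlap in these pairs is part of the rule that named them.

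A BAIAP2 bin at 81050001 paired with the gene-free bin at 81300001 over 250 kb at 2.67, 2.97, 2.02 and 1.42 CPM (log2 fold change -0.72, SE 0.20). The CD7 and SECTM1 bin at 82300001, which holds genes for surface and secreted proteins of immune cells, paired with the bin of FN3KRP and FN3K, kinases that undo protein glycation, at 82700001. Over 400 kb it had 2.00, 2.05, 1.26 and 1.22 CPM (log2 fold change -0.70, SE 0.23). Here the libraries of a group lay close together, whereas the knockdown libraries of the BAIAP2 pair differed.

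The AATK and CEP131 bin at 81150001 paired with the bin of ACTG1, a cytoplasmic actin, and FSCN2 at 81500001 over 350 kb, at 4.84, 5.71, 3.43 and 3.26 CPM (log2 fold change -0.66, SE 0.14). The last of the 8 joined the PDE6G and HGS bin at 81650001 to the bin of ASPSCR1, CENPX and RAC3 at 82000001, at 2.72, 3.45, 1.91 and 2.01 CPM over 350 kb (log2 fold change -0.65, SE 0.19). All 8 were lower with the trend removed and by DESeq2. Without TDP43KD replicate 1, 5 of the 8 were lower, and without TDP43KD replicate 2, 4. The 3 that were lower with each library left out in turn joined RBFOX3 to ENPP7, GCGR to FASN, and AATK to ACTG1.

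Pairs chosen by the control level for their distance had more contacts, most of them far more. Their differences were smaller than those of the 8 pairs above, which follows from the choice of those 8 by size of decrease. At 150 kb or more, 8 pairs of the region ranked at 6 or better among all listed pairs of the same distance, and 7 of the 8 were lower under TMM. The choice used control counts, which also enter the fold change. All 8 were 200 kb or more apart, where 7.92% of the pairs of the series were lower under TMM and 11.3% with the trend removed. The SE of the 8 pairs lay between 0.07 and 0.13, against a median of 0.21 over the series at that range. They could therefore be called at smaller differences than most pairs. The count of 7 of 8 depends on the cut at rank 6, and strong pairs ranked past it were mixed. The pair of bins at 80450001 and 80850001 (rank 9 of 563 at 400 kb, log2 fold change -0.21) did not pass. Nor did that of 81250001 and 81550001 (rank 12 of 1282 at 300 kb, -0.11), whereas that of 79000001 and 79350001 (rank 16 of 838 at 350 kb, -0.33) did. The strongest pair of the series at 550 kb, rank 1 of 174, joined the ENDOV bin at 80400001 to the bin at 80950001, which holds the end of RPTOR and CHMP6. ENDOV encodes an endonuclease that acts at inosine in RNA and CHMP6 a membrane-scission protein. This pair had 14.5, 16.0, 10.8 and 12.7 CPM (2212, 2457, 1303 and 1893 contacts), a log2 fold change of -0.37 (SE 0.08). It was not past the threshold without TDP43KD replicate 1.

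The bin next to ENDOV, with NPTX1, a pentraxin of synapses, contacted the same RPTOR and CHMP6 bin over 500 kb at rank 2 of 252. Its levels were 10.0, 9.87, 7.46 and 7.63 CPM, a log2 fold change of -0.40 (SE 0.10). NPTX1 also contacted the RPTOR bin at 80900001 over 450 kb at rank 6 of 370, and there the difference was larger, with 979 and 1008 contacts in the controls against 466 and 654 (log2 fold change -0.65, SE 0.13). These pairs arch over the body of RPTOR.

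Inside and around RBFOX3 lay another group of strong contacts that met at the bin starting at 79350001. That bin and the ENGASE and RBFOX3 bin at 79050001 formed the strongest listed pair of the series at 300 kb, rank 1 of 1282. It had 14.4, 14.4, 10.8 and 11.3 CPM, a log2 fold change of -0.38 (SE 0.08). The contact of the same bin with the bin at 79150001 was rank 2 of 2856 at 200 kb, with a log2 fold change of -0.22 (SE 0.07). That with the bin at 79100001 was rank 2 of 1890 at 250 kb and did not pass, at -0.16 (SE 0.08).

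From SLC38A10, an amino acid transporter gene, the bin at 81250001 contacted the BAHCC1 bin at 81450001 over 200 kb at rank 4 of 2856 (log2 fold change -0.33, SE 0.08). It also contacted the bin of ACTG1 at 81500001 over 250 kb at rank 4 of 1890 (log2 fold change -0.39, SE 0.09). Of the 8 strong pairs, 6 were lower with the trend removed and 2 with each library left out in turn, those of RBFOX3 at 300 kb and of NPTX1 at 450 kb. Without TDP43KD replicate 1, 3 of the 8 were lower, and without TDP43KD replicate 2, 5.

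**Figure D4:**
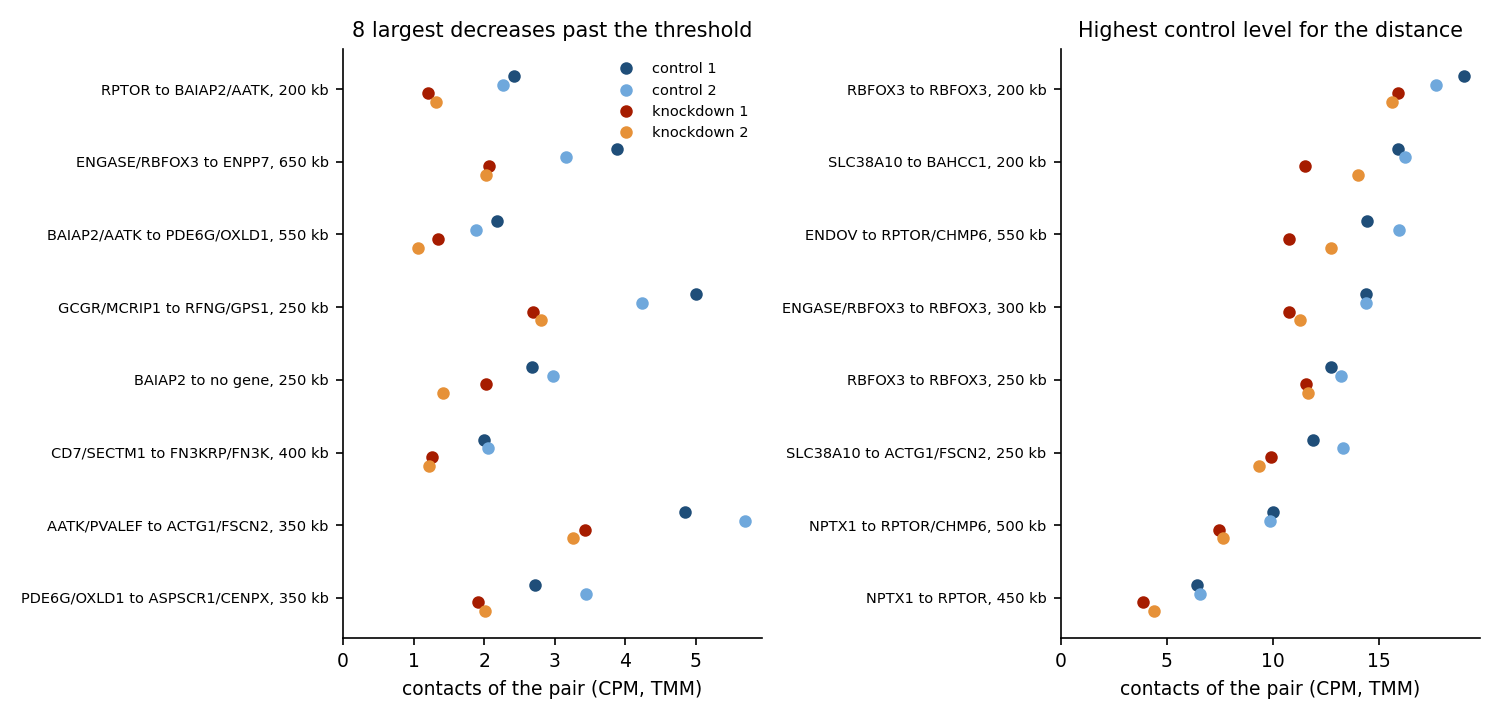
Contacts in CPM of each of the 4 libraries for the 8 largest decreases (left, one row per pair with the genes at its ends and the distance) and for the 8 pairs at 150 kb or more ranked at 6 or better by control level for their distance (right). Knockdown points lie left of control points in each row. The gap relative to the level is wider on the left, where levels are below 6 CPM and pairs were picked by the size of that gap.

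Some bins took part in many pairs. The bin at 81100001, with BAIAP2 and AATK and within AATK the miRNA genes MIR338, MIR657, MIR3065 and MIR1250, was lower in 9 of its 17 pairs, the highest count among the 98 bins. BAIAP2's bin at 81050001 was lower in 7 of 16. Over the series, 5.84% of pairs between bins were called lower. The RPTOR and CHMP6 bin at 80950001 had the most pairs, 23, of which 6 were lower. It was an end of 9 of the 34 pairs at 500 kb or more, out to 950 kb, the longest listed distance of the region. Of these 9, 2 were lower, beside 12.4% of such pairs over the series. At 950 kb the RPTOR and CHMP6 bin contacted the TBC1D16 and CCDC40 bin. That pair had 349 and 339 contacts in the controls and 186 and 249 in the knockdown (log2 fold change -0.48), and did not pass.

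Long genes showed how contacts inside one gene behaved. RPTOR (chr17:80544838-80966368) covers 10 bins, and 4 of its 45 inner pairs were lower (5.84% of pairs between bins over the series). The median of the 45 was -0.06, with 19 pairs above 0. The highest log2 fold change between bins of the region, 0.43 (SE 0.20), was inside RPTOR between the bins at 80600001 and 80750001, at 269 and 344 contacts in the controls and 347 and 372 in the knockdown. It did not pass the threshold, nor did the next, 0.41 (SE 0.17), also inside RPTOR. In 6 of 98 bins of the region the median over the bin's pairs was above 0, and 3 of these were inside RPTOR. All 3 lie in the trough of contacts within a bin.

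RBFOX3 (chr17:79089345-79665571) covers 13 bins, and 9 of its 77 inner pairs were lower (5.84% of pairs between bins over the series). The median of the 77 was -0.12, with 19 above 0. All 13 of its bins were lower within the bin under TMM (median -0.32), beside 14.3% of the bins of the series. With the trend removed 5 of the 13 bins were higher (7.89% of the series) and the median was 0.07. DNAH17, a dynein heavy chain gene of cilia, had 0 of 6 inner pairs lower and TBCD, a tubulin folding cofactor gene, 1 of 6. Inner pairs of these genes had medians of -0.02 and -0.17.

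Gene by gene, the contact within the bin of the gene start was taken. Of 13 lists by function, the members whose start bin was listed were all lower under TMM except FOXK2, a forkhead transcription factor, at -0.11 (SE 0.06). Under TMM 92 of the 98 bins of the region were lower, and 14.3% of the bins of the series, so the counts per list repeat what nearly every bin here showed and single out no list. Genes that share a bin share the value. The bin of CBX2 and CBX8, genes of polycomb proteins that read methylated histone, had 138 and 144 CPM in the controls against 103 and 104 CPM (log2 fold change -0.45). With the trend removed this became -0.05 and did not pass.

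All 8 neuronal genes were lower under TMM. AATK had a log2 fold change of -0.52, PDE6G -0.51, FSCN2 -0.48 and UTS2R, a receptor for the peptide urotensin, -0.42. NPTX1 had 166 and 184 CPM in the controls against 131 and 134 CPM (-0.40), RBFOX3 -0.34 and TBCD -0.38. None of the 8 passed with the trend removed. Their values there lay between -0.08 and 0.05.

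All 5 growth and lipid genes were lower under TMM. FASN, in the bin with the largest decrease within a bin of the region, had 217 and 237 CPM in the controls against 146 and 153 CPM (log2 fold change -0.61, SE 0.06). It stayed lower with the trend removed, at -0.11. PCYT2, which makes a precursor of phosphatidylethanolamine, had -0.53 and SLC16A3, a lactate exporter, -0.52, and neither passed with the trend removed. PGS1, an enzyme of cardiolipin synthesis, had -0.26 under TMM and 0.13 with the trend removed, both called. SOCS3, the cytokine signalling inhibitor of the immune list, shares the bin of PGS1 and its values. RPTOR had -0.23 and then 0.05, the latter not called.

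Of the RNA list, all 4 were lower under TMM: DUS1L -0.61, ALYREF, an mRNA export adaptor, -0.41, EIF4A3, a core protein of the exon junction complex, -0.34, and RBFOX3. The 4 lysosome and glycan genes were lower as well: SGSH, a heparan sulfate sulfatase, -0.50, HEXD -0.49, ENGASE -0.46 and GAA, the lysosomal glucosidase, -0.34. SGSH stayed lower with the trend removed, at -0.11. So, narrowly, did CEP131 of the cell division list, at -0.09 (-0.52 under TMM). Its edgeR adjusted p with the trend removed was 0.0494, and 0.0616 among the authors' deposited values, where it did not pass. CENPX (-0.58), ANAPC11 and BIRC5 (both -0.41), the last the inhibitor of apoptosis called survivin, were called lower under TMM and not with the trend removed.

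The other lists were alike. All 6 cytoskeleton genes were lower under TMM, from -0.58 at RAC3 to -0.17 at CYTH1, as were all 4 mitochondrial genes, among them PYCR1 of proline synthesis (-0.53) and MRPL12 of the mitochondrial ribosome (-0.49). All 7 ubiquitin and trafficking genes were lower, from ASPSCR1 (-0.54) to NPLOC4 (-0.24), and NARF (-0.25) was higher with the trend removed (0.11). Lower too were 4 of 5 transcription and chromatin genes, with SIRT7 and MAFG at -0.53 and BAHCC1 at -0.38. BAHCC1 was narrowly called higher at 0.09 with the trend removed. Its edgeR adjusted p there was 0.0393, and 0.0515 among the authors' deposited values, where it did not pass. All 4 secreted proteins (NOTUM, a Wnt deacylase, -0.54), all 3 immune genes (CD7 and SECTM1 -0.54) and both deglycation genes (FN3K and FN3KRP -0.36) were lower under TMM.

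**Figure D5:**
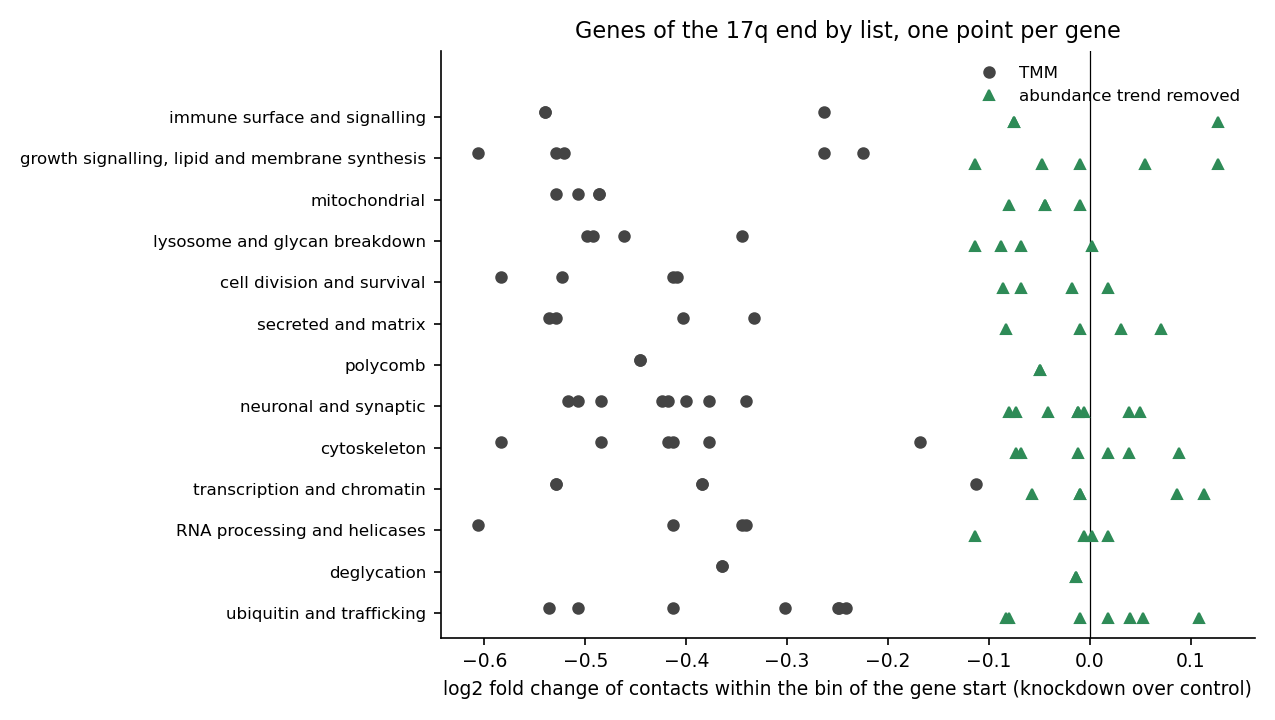
Log2 fold change of contacts within the bin of the gene start, knockdown over control, for the genes of 13 lists (rows), with TMM scaling (circles) and with the abundance trend removed (triangles). Circles lie between -0.61 and -0.11 and triangles between -0.11 and 0.13, on both sides of 0; genes in one bin overlap.

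Bins within the region differed in relation to their level and place. Across the 98 bins, the TMM log2 fold change within a bin went down with the log2 control level (Pearson r = -0.56, Spearman -0.78), a description without a p, since the bins share the 4 libraries and the control counts enter both measures. It also went down towards the chromosome end (r = -0.38, Spearman -0.41) and with the number of protein-coding genes over the bin (r = -0.43, Spearman -0.40). With the trend removed, the relation to the control level had no single sign (r = 0.27, Spearman -0.27), and that to place was r = -0.52 (Spearman -0.58). The relation to gene number became r = -0.18 (Spearman -0.34). Bins with 3 or more genes had a median of -0.50 under TMM and -0.04 with the trend removed. Those with 1 or 2 had -0.34 and 0.04, and the 9 with none had -0.41 and 0.03. The order under TMM thus did not follow the gene number throughout.

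The 3 lowest values within a bin with the trend removed were those of the sparse gene-free bin at 81750001 (-0.57), the last listed bin at 83200001 (-0.37) with 12.3 and 10.7 CPM in the controls and 9.35 and 8.60 CPM in the knockdown, and the bin at 82900001 next to the unlisted bins (-0.30), with 52.3 and 51.2 CPM in the controls and 37.6 and 36.4 CPM in the knockdown. The bins not lower within the bin under TMM were 78700001 in CYTH1, an exchange factor for ARF proteins (0.01), 4 in RPTOR, the lowest of them at -0.12, and the FOXK2 bin. The CYTH1 bin had 52.4 and 53.1 CPM in the controls and 53.2 and 53.1 CPM in the knockdown, and was the highest of the region with the trend removed (0.23).

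The first bin inside, which holds BIRC5, had 135 CPM in the controls and 102 CPM in the knockdown (log2 fold change -0.41). The first bin outside had 128 and 101 CPM (-0.34), and the one before it 221 and 159 CPM (-0.47). Over the 5 Mb next to the region on the centromere side, the median within a bin was -0.22 under TMM and 0.11 with the trend removed, and between bins -0.06 and -0.12. As a log2 ratio of summed CPM within bins, the 17q end over that neighbour was 0.36 and 0.40 in the controls and 0.24 and 0.25 in the knockdown. The groups did not overlap, and the difference was -0.14, given without a test.

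Set against other chromosome ends, the 17q end over the end of 20q was 1.12 and 1.11 in the controls and 1.12 and 1.12 in the knockdown on the same log2 scale, a difference of 0.01. The medians within a bin under TMM were -0.37 for the end of 17q and -0.36 for that of 20q. With the trend removed they were 0.01, with 10 bins of 98 lower and 16 higher, and -0.10, with 38 of 94 lower and 3 higher. Of the bins of the series, 5.12% were then called lower and 7.89% higher. Over the end of 3p the ratio was 4.57 and 4.73 in the controls and 4.22 and 4.26 in the knockdown, a difference of -0.41. The median bin of the end of 3p had 3.23 CPM in the controls. Its median log2 fold change within a bin was 0.07 under TMM and 0.01 with the trend removed. Between bins, the median under TMM was -0.20 for the end of 17q and -0.25 for that of 20q. With the trend removed these were -0.24 and -0.31, with 120 of 561 and 68 of 248 pairs lower (7.01% of the series). The 16 pairs between bins at the end of 3p had medians of 0.23 under TMM and 0.15 with the trend removed.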

How the data were processed

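Micro-C contacts of 2 control and 2 TDP-43 knockdown libraries were analysed from one deposited table. Per the submitters' processing notes, HiC-Pro and the hg38 build were used; versions, alignment settings and filters are not given in the sources used here. The authors deposited raw contact counts per library for 89239 pairs of 50 kb bins. Per the file headers, the deposited table also holds a log2 fold change, a log2 mean abundance, an F score and the authors' raw and adjusted p-value. The table starts at a log2 mean abundance of -0.01, so sparse pairs are not in it, and totals are of listed contacts only.

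Counts were fitted with edgeR 4.0.16 in R 4.3.3 (limma 3.58.1) by glmQLFit and glmQLFTest with TMM scaling and group as the only term. P-values were adjusted by Benjamini-Hochberg over all pairs, and called at 0.05. filterByExpr dropped 0 pairs. A 2nd scaling removed the abundance trend with loess offsets per library (span 0.3), and its log2 fold changes were within 0.00237 of the authors' deposited ones. SE is the size of the log2 fold change over the square root of F. On counts simulated for this comparison over 89239 pairs, edgeR found 100% of 100 pairs made to differ by 1 on the log2 scale, 33% of 100 made to differ by 0.5, and 1 false call. The simulated counts had the same dispersion for all pairs and no abundance trend between groups. The false call count therefore does not cover data with such a trend.

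Named pairs were the 8 largest decreases and up to 4 largest increases past the threshold without overlap between groups, adjoining pairs counting once. Up to 4 genes were named per list by size of the log2 fold change within the start bin, with those of the first and last bins. The region, its 13 lists (65 genes) and the rules were chosen with earlier results of these data known. The strong control pairs, the genes named beyond the rule and the bins singled out were picked with their values in view. Gene starts came from the RefSeq gene and promoter tables of GRCh38.p14, the assembly of hg38: by strand, or for 23 genes because the body lies in 1 bin. Replicate numbers did not pair libraries (correlation of deviations 0.0193, which with 2 a group is the same for both numbers). Alternatives were DESeq2 1.42.0, TMM within distance classes, a replicate block, no filter, leaving out single libraries, separate fits within and between bins, the authors' table, other thresholds, edges and totals. Tables and plots were made in Python 3.11.15 with pandas 2.3.3, numpy 2.4.6, matplotlib 3.10.9 and scipy 1.17.1. Part of what this rule selected is not reported here.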

Additional observations from a re-analysis of the deposited data

How the results depend on the processing

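The count of 196 pairs of the 17q end past the threshold ranged from 98 to 234 as each library was left out, the lowest without TDP43KD replicate 1 and the next lowest, 112, without TDP43KD replicate 2. Separate fits tested fewer pairs. In the fit within bins 92 of 98 bins passed, where 14.4% of the bins of the series were called lower. In the fit between bins 81 of 561 pairs passed, where 4.52% of such pairs of the series were called lower. With one library left out in turn, the median log2 fold change ranged from -0.27 to -0.18 over all pairs, from -0.43 to -0.33 within bins and from -0.25 to -0.14 between bins. The median within bins was -0.37 and turned to 0.0149 with the abundance trend removed and to 0.0149 in the authors' deposited table; the cause was not tested. Single genes turned too: PGS1 and SOCS3 to 0.13 in both, and BAHCC1 to 0.0866 with the trend removed. Of 48 named genes, 41 were no longer past the threshold with the trend removed. The share of all listed contacts differed by -0.220 percentage points (-0.259 to -0.182 as libraries were left out), by -2.67 with chromosome 17 as the total and by -0.0141 between bins only. With the replicate block, which pairs libraries by a number they only share, 203 pairs passed (11.1% of the series lower). The medians were -0.23, -0.37 and -0.20. DESeq2 called 167 pairs (9.02% of the series lower) and TMM within distance classes 191 (10.4%). These fits, thresholds of 0.01 (140) and 0.1 (242) and edges moved by 1 Mb (218 and 160) kept the direction of the median and of most calls. With 2 libraries a group, pairs of few contacts carry wide errors, with an SE of up to 0.23 among the pairs named.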
